A study of Homo sapiens with 8 samples.

Results

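The collagen genes described here are the protein-coding genes whose symbol reads COL, a number, A and a number, such as COL6A3, apart from COL17A1. The rule read names and not measured values, and it found 43 genes among the 58336 gene identifiers of the count table. Of these, 24 had enough counts to be tested and 19 did not.

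Collagens are secreted or membrane-bound proteins in which chains wind into a triple helix, and each chain has its own gene. Some types are built from identical chains, and others, such as types I, IV, V and VI, are mostly built from chains of different genes. Fibrillar collagens form the cables of the interstitial matrix, type IV forms the sheet of basement membranes, type VI forms beaded microfilaments beside cells, and FACIT collagens (fibril-associated collagens with interrupted triple helices) sit on the surface of fibrils. In the lung, fibroblasts are the main source of fibrillar collagen, and its build-up is a hallmark of the scarring that bleomycin is used to model.

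RNA-seq counts were taken in 8 libraries of SUM159 (Sum159 in the labels), an established line of human triple-negative breast cancer cells with mesenchymal features. The 2 libraries of the ITGB4 high genotype and the 3 libraries of ITGB4 low clone 1 came from cells grown in dishes. ITGB4 encodes the integrin beta 4 chain, a laminin receptor of hemidesmosomes. The 3 lung-recovered libraries came from ITGB4 low clone 1 cells put into mice through the tail vein. Those mice received bleomycin, a drug that injures and inflames the lung, by the trachea. Their lungs were dissociated, the suspension stayed in dishes overnight, and on the next day tumor cells were sorted by the red fluorescence of tdTomato. The ITGB4 low state is represented by 1 clone, and no lung-recovered library without bleomycin was analysed here. Passage through the lung, bleomycin, dissociation, the night in dishes and the sort therefore cannot be told apart in the lung comparisons. The series' title asks how inflammation acts on dormant cancer cells through their place between epithelial and mesenchymal states. The titles number biological replicates but name no culture or animal, so the p-values speak only of how far these libraries spread, which may be technical.

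The libraries held 20.41 to 27.22 M counts. ITGB4 stood at 376 to 420 CPM (counts for each M of library total after TMM scaling) in ITGB4 high, at 5.29 to 9.13 CPM in ITGB4 low clone 1 and at 376 to 407 CPM in lung-recovered cells. The lung-recovered libraries therefore do not carry the low ITGB4 level of the clone they are labelled with. Their comparison with the clone is thus also one between unlike ITGB4 levels. VIM, the mesenchymal intermediate filament gene, lay at 4261 to 5024 CPM in all 8 libraries, ESR1 never passed 3 counts, and PGR and CDH1 had 0 counts. In bulk RNA, a change in the share of cells that express a gene and a change in RNA per cell cannot be told apart.

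Summed over the collagen genes, the level stood at 2126 ± 31.5 CPM (SD, n = 2) in ITGB4 high, 4175 ± 107 CPM (n = 3) in ITGB4 low clone 1 and 5298 ± 94.7 CPM (n = 3) in lung-recovered cells. The libraries of the 3 groups did not overlap in this sum, which was not tested. Type VI collagen made up 5.95% of the sum in ITGB4 high, 38.6% in ITGB4 low clone 1 and 55.95% in lung-recovered cells. Without COL6A3, the largest single contributor in lung-recovered cells, the sum was 2057 ± 28.4 CPM, 2982.5 ± 42.0 CPM and 3055 ± 29.4 CPM. Without COL6A3 and COL8A1 it was 1177 ± 39.7 CPM, 1757.5 ± 27.7 CPM and 2034.5 ± 28.9 CPM, and the libraries of the groups overlapped in neither sum.

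**Figure D1:**
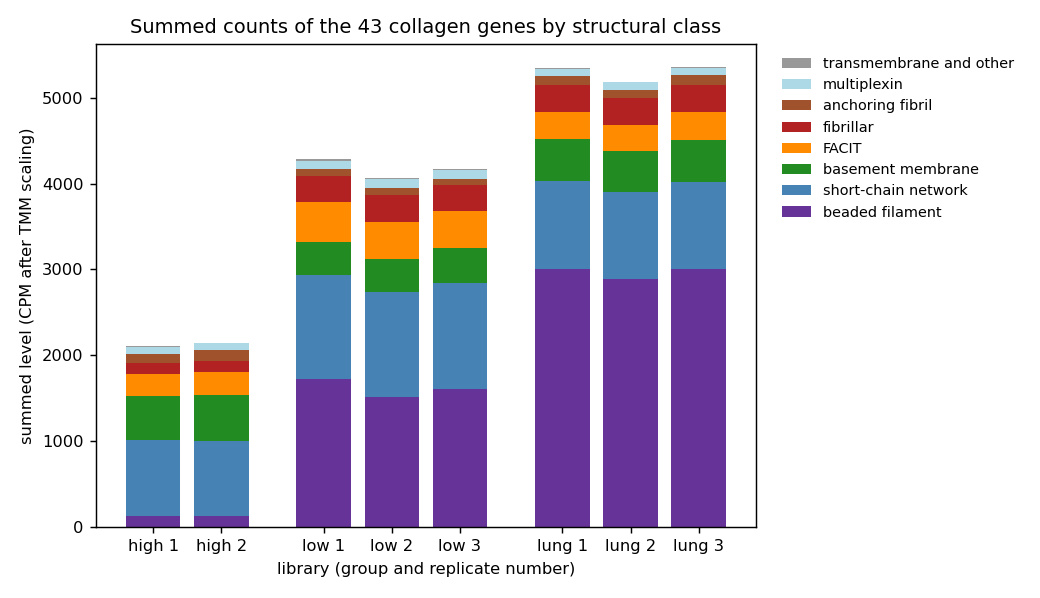
Summed level of the collagen classes in each of the 8 libraries, in CPM on a linear axis that starts at 0. Type VI collagen, the beaded filament class, went from 127 ± 1.04 CPM (SD, n = 2) in ITGB4 high to 1611 ± 106 CPM (n = 3) in ITGB4 low clone 1 and 2964 ± 66.5 CPM (n = 3) in lung-recovered cells.

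Between ITGB4 low clone 1 and ITGB4 high, 11 of the 24 tested collagen genes were higher and 10 were lower at an adjusted p under 0.05 (edgeR quasi-likelihood F test, adjusted over all 15220 genes tested). Of all genes tested, 56.2% were called in this comparison, 28.6% higher and 27.6% lower, so a call alone says little about a collagen gene. A call with at least a 2-fold difference was made for 9 collagen genes higher and 3 lower, beside 9.12% and 3.95% of all genes (13.1% together). The median log2 difference of the 24 was 0.11, and over all genes it was 0.00090. For 23 of the 24, every library of the clone lay on the same side of both ITGB4 high libraries, as for 68.7% of all genes, and COL1A1 was the exception.

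Between lung-recovered cells and ITGB4 low clone 1, 11 collagen genes were higher, 7 were lower and 6 were not called, where 14.7% of all genes were higher and 15.4% lower, 30.1% together. At least 2-fold calls numbered 6 higher and 3 lower, beside 3.20% and 2.31% of all genes (5.51% together), and the median log2 difference was 0.34 against 0.00031 over all genes. Between lung-recovered and ITGB4 high cells, 14 were higher, 4 were lower and 6 were not called, beside 26.2% and 25.0% of all genes, 51.2% together. At least 2-fold calls numbered 9 higher and 2 lower, beside 8.08% and 2.50% of all genes (10.6% together), and the median was 0.36 against 0.0051. Libraries did not overlap for 19 of the 24 in either lung comparison, beside 43.3% of all genes against the clone and 66.8% against ITGB4 high. A gene that passed the count filter only through the group in which it was high had to differ, so these counts describe the tested collagen genes and are no test of the family. Among the 16 collagen genes that reached 10 CPM in a group, 7 were higher, 7 lower and 2 not called in the clone against ITGB4 high (65.2% of all genes at that level were called). For lung-recovered cells the figures were 8, 4 and 4 against the clone (35.3% of all genes called) and 10, 3 and 3 against ITGB4 high (60.2%). The 3 comparisons share libraries pairwise, so their values are set side by side below and nothing is read from how their signs line up.

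**Figure D2:**
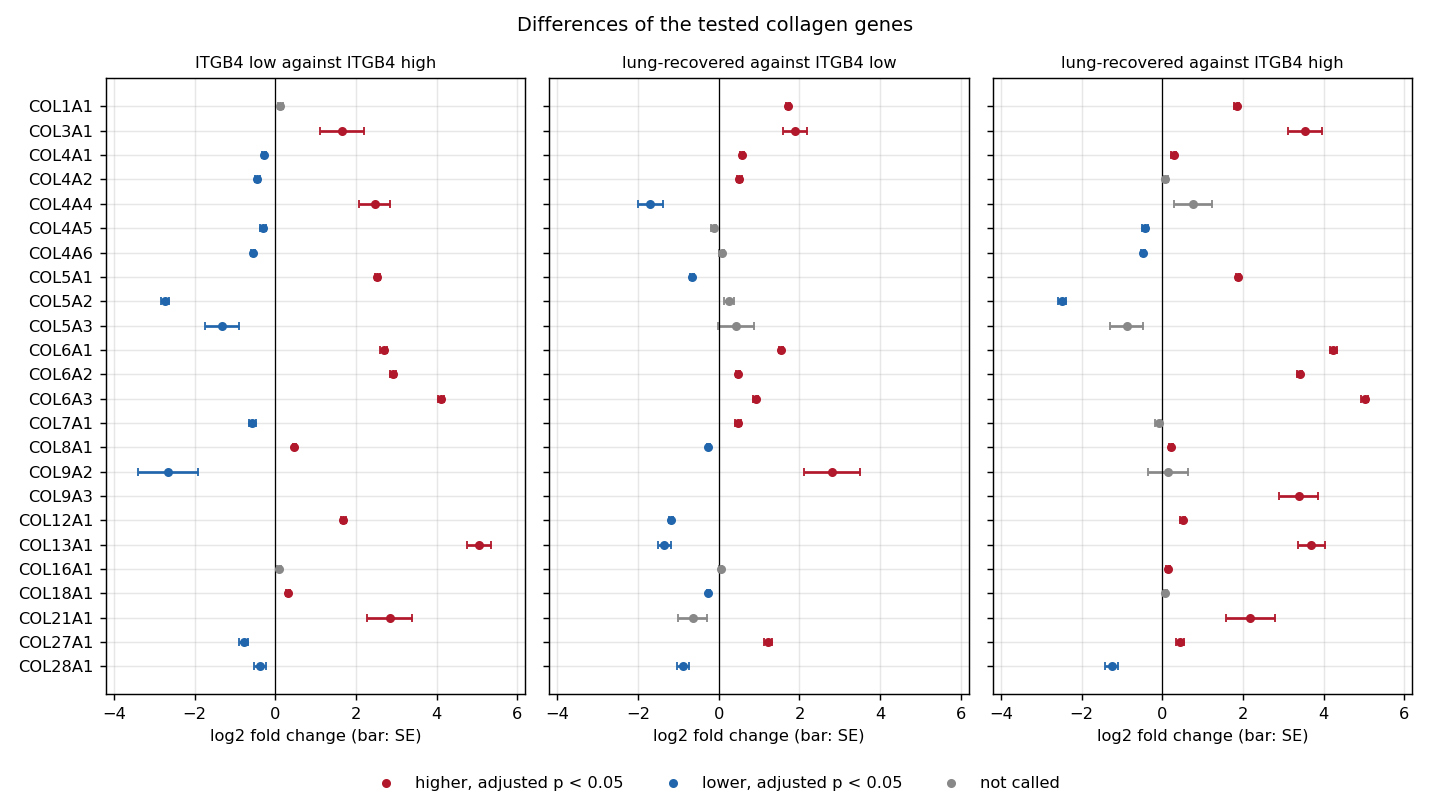
Log2 differences with their standard errors for the tested collagen genes in the 3 comparisons, in order of gene number. Red points were called higher, blue points lower, and grey points were not called. Type VI genes stood to the right of 0 in each panel, up to 5.02 for COL6A3 in lung-recovered against ITGB4 high cells. COL9A3 is left out of the panels that use ITGB4 low clone 1, where it had 2 counts in all.

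Type VI collagen assembles from the alpha 1, alpha 2 and alpha 3 chains of COL6A1, COL6A2 and COL6A3, and the end of the alpha 3 chain is cut off to release endotrophin. All 3 genes were higher in each comparison. Of all genes, 28.6% were higher in the clone than in ITGB4 high. In lung-recovered cells 14.7% of all genes were higher than in the clone and 26.2% higher than in ITGB4 high. COL6A3 (chr2:237324003-237414375, minus strand, hg38) stood at 67.0 and 71.3 CPM in ITGB4 high, at 1347, 1075 and 1155.5 CPM in ITGB4 low clone 1, and at 2284, 2165 and 2278 CPM in lung-recovered cells. No library of any group overlapped with another group, and the first ITGB4 low library was the highest of its group. COL6A3 differed by 4.11 on the log2 scale (SE 0.08, adjusted p = 1.99e-18) between the clone and ITGB4 high and by 0.91 (SE 0.06, adjusted p = 4.61e-10) between lung-recovered cells and the clone.

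COL6A2 (chr21:46098097-46132849, plus strand) read 44.2 and 42.9 CPM in ITGB4 high, 295, 339 and 352 CPM in the clone and 463, 457 and 462 CPM in lung-recovered cells. COL6A1 (chr21:45981737-46005050, plus strand) read 14.6 and 13.1 CPM, 78.4, 95.7 and 94.8 CPM, and 253, 266 and 264 CPM in the same order. Both were lowest in the first ITGB4 low library, the one in which COL6A3 was highest. Lung-recovered cells exceeded the clone by 1.54 log2 units for COL6A1 (SE 0.06, adjusted p = 9.65e-14) and by 0.49 for COL6A2 (SE 0.05, adjusted p = 3.91e-07). The type VI genes thus did not differ by the same amount between lung-recovered and clone cells, COL6A1 showing the largest difference and COL6A2 the smallest of the 3. Against ITGB4 high, the clone stood higher by 2.69 (SE 0.09, adjusted p = 1.84e-15) for COL6A1 and by 2.91 (SE 0.07, adjusted p = 1.69e-17) for COL6A2. Lung-recovered cells exceeded ITGB4 high by 5.02 for COL6A3 (SE 0.09, adjusted p = 4.54e-19), by 4.23 for COL6A1 (SE 0.09, adjusted p = 4.47e-18) and by 3.40 for COL6A2 (SE 0.07, adjusted p = 5.06e-18).

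COL6A1 and COL6A2 lie 93.0 kb apart in the same direction on chromosome 21, and COL6A3 is on chromosome 2. Genes within 5 Mb of COL6A1 and COL6A2 had median log2 differences of -0.09 for the clone against ITGB4 high and 0.05 for lung-recovered cells against the clone (58 genes). Around COL6A3 these medians were 0.11 and -0.0025 (57 genes). The type VI genes therefore stood apart in size from the middle of their surroundings. In the clone against ITGB4 high, 98.3% of the neighbours lay below COL6A1, 98.3% below COL6A2 and 98.2% below COL6A3. For lung-recovered cells against the clone these shares were 94.8%, 84.5% and 96.5%, so COL6A2 stood less apart there. The 250 bases before the RefSeq start sites of COL6A2 (chr21:46097862-46098111, plus strand) and COL6A3 (chr2:237414165-237414414, minus strand; RefSeq, GRCh38.p14) are shown because these genes encode partner chains and were both higher in the clone and in lung-recovered cells than in ITGB4 high. Each is written 5′ to 3′ with capitals for GGGCGG, the core of a GC box, and for the CCAAT motif, on either strand, so that some capitals are a reverse complement. GENCODE 29 places the outermost starts of both COL6A2 and COL6A3 further upstream, inside the bases shown.
COL6A2: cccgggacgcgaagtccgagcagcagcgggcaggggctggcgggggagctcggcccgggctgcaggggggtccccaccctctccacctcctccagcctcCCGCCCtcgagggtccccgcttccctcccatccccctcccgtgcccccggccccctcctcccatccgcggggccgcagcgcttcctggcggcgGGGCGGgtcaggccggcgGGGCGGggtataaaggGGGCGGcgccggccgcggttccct
COL6A3: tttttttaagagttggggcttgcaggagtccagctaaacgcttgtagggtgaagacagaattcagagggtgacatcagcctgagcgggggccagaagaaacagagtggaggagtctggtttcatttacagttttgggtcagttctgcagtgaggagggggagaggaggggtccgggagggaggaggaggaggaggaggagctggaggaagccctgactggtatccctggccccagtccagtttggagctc
The COL6A2 sequence held 4 GC boxes and was 79.6% G and C, and the COL6A3 sequence held none and was 56.0% G and C. Neither held CCAAT. Of 27305 RefSeq promoters, 42.2% had GGGCGG in this window and 33.0% had CCAAT. Among the 18 tested collagen genes with an entry in the table, 11 had GGGCGG and 6 had CCAAT. The windows of COL4A1 and COL4A2 share 126 bases and those of COL4A6 and COL4A5 share 121, so motifs there count for both genes. The sequence TATAAA was found in 3 of the 18 (11.2% of all promoters), CACCTG in 3 (17.5%) and TGANTCA in 0 (6.57%), all searched on both strands. These are matches of letters, not measured binding sites.

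COL8A1 (chr3:99638475-99799226, plus strand) encodes a short-chain collagen that forms hexagonal networks, best known from the membrane under the corneal endothelium and from vessel walls. It carried the largest share of the collagen sum in ITGB4 high, 41.4%, and 29.4% and 19.3% in the clone and in lung-recovered cells. The 2 ITGB4 high libraries read 888 and 872 CPM, those of the clone 1209.9, 1226 and 1239 CPM, and those of lung-recovered cells 1028, 1017 and 1017 CPM. The groups did not overlap, with the lung-recovered cells between the other two. COL8A1 was higher in the clone than in ITGB4 high by 0.48 (log2, SE 0.04, adjusted p = 1.55e-08), and lung-recovered cells lay below the clone (-0.26, SE 0.04, adjusted p = 2.44e-05) and above ITGB4 high (0.21, SE 0.04, adjusted p = 3.55e-04). Its partner chain gene COL8A2 had 6 counts in ITGB4 high, 1 in the clone and 4 in lung-recovered cells over whole groups, too few to test.

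To compare levels between genes, CPM were divided by the length of the union of exons in kilobases. By this measure of level, COL8A1 led ITGB4 high with 93.5 CPM per kb, followed by COL16A1 (20.7), COL4A6 (16.4) and COL7A1 (10.4). In ITGB4 low clone 1, COL8A1 (130.2 CPM per kb) was followed by COL6A2 (61.0) and COL6A3 (60.7), which did not differ beyond the spread of their libraries, and by COL5A1 (23.3). In lung-recovered cells COL6A3 came first with 114 CPM per kb, followed by COL8A1 (108.5), COL6A2 (85.5) and COL6A1 (48.9). With the longest transcript as length, COL4A2 (27.6 CPM per kb) followed COL16A1 (33.5) in ITGB4 high and COL7A1 (12.4) left the leading 4, and in the clone COL6A3 (110.9) passed COL6A2 (94.9) and COL16A1 (35.9) passed COL5A1 (30.8). The order of the leading genes thus differed among the groups, with type VI chains among the leading 4 in the clone and in lung-recovered cells and not in ITGB4 high.

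**Figure D3:**
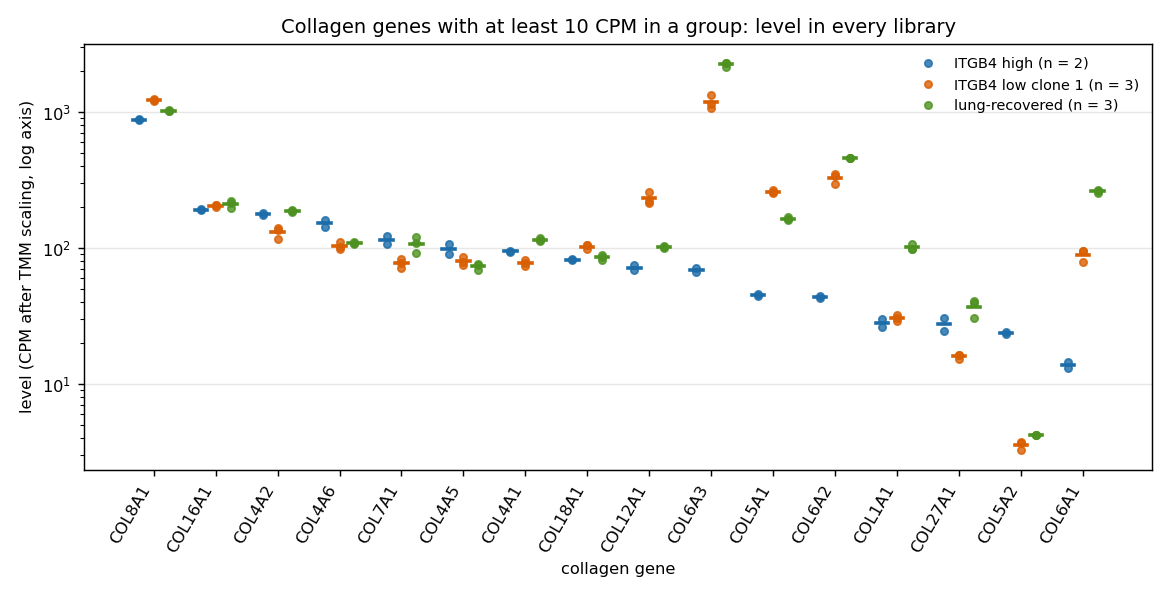
Level of the 16 collagen genes that reached 10 CPM in a group, in CPM on a log axis, ordered by their level in ITGB4 high, with a point per library and a bar at the mean of each group. COL8A1 lay between 872 and 1239 CPM in every library, and COL6A3 ran from 67.0 CPM in ITGB4 high to 2284 CPM in lung-recovered cells.

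Type IV collagen is the sheet-forming collagen of basement membranes, with COL4A1 and COL4A2 in almost all of them and COL4A5 and COL4A6 in those of epithelia and smooth muscle. Together the type IV genes stood at 525 ± 20.5 CPM (n = 2) in ITGB4 high, 395 ± 9.50 CPM (n = 3) in the clone and 486 ± 6.99 CPM (n = 3) in lung-recovered cells. Of the 5 tested, 4 were lower and COL4A4 was higher in the clone than in ITGB4 high, where 27.6% of all genes were lower and 28.6% higher. In lung-recovered cells against the clone, COL4A1 and COL4A2 were higher, COL4A4 was lower, and COL4A5 and COL4A6 were not called, beside 30.1% of all genes called.

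COL4A1 (chr13:110148963-110307233, minus strand) read 94.4 and 95.2 CPM in ITGB4 high, 74.0, 77.2 and 81.8 CPM in the clone, and 113, 114 and 119 CPM in lung-recovered cells. COL4A2 (chr13:110305812-110513209, plus strand) read 182 and 176 CPM, 117, 136 and 142 CPM, and 192, 188 and 185 CPM. The clone held the lowest libraries for both genes, without overlap. COL4A1 was lower in the clone than in ITGB4 high by a log2 difference of -0.29 (SE 0.05, adjusted p = 1.05e-04), and COL4A2 by -0.44 (SE 0.06, adjusted p = 3.62e-06). Lung-recovered cells exceeded the clone by 0.57 for COL4A1 (SE 0.05, adjusted p = 1.05e-08) and by 0.51 for COL4A2 (SE 0.05, adjusted p = 3.78e-07). Against ITGB4 high, COL4A1 was higher in lung-recovered cells (0.28, SE 0.05, adjusted p = 1.38e-04), and the COL4A2 difference of 0.07 (SE 0.06, adjusted p = 0.333) was not called.

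COL4A6 (chrX:108155607-108439497, minus strand) read 144 and 161 CPM in ITGB4 high, 112, 98.1 and 103 CPM in the clone, and 109, 108 and 111 CPM in lung-recovered cells. COL4A5 (chrX:108439844-108697545, plus strand) read 90.3 and 107 CPM, 86.5, 75.6 and 78.5 CPM, and 75.1, 68.9 and 76.0 CPM. Both were highest in ITGB4 high, and for both the clone and lung-recovered libraries overlapped. COL4A6 lay below ITGB4 high in the clone (-0.55, SE 0.06, adjusted p = 1.08e-07) and in lung-recovered cells (-0.48, SE 0.06, adjusted p = 8.30e-07). For COL4A5 the values were -0.30 (SE 0.07, adjusted p = 0.00103) and -0.43 (SE 0.07, adjusted p = 3.40e-05), and the first call was lost without library 2 of ITGB4 high (-0.18, adjusted p = 0.0572). Between lung-recovered cells and the clone, the differences of 0.07 for COL4A6 (adjusted p = 0.365) and -0.13 for COL4A5 (adjusted p = 0.147) were not called.

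COL4A4, an alpha chain of kidney and lung basement membranes, was low throughout. It stood at 0.339 and 0.195 CPM in ITGB4 high, at 1.60, 1.50 and 1.41 CPM in the clone and at 0.336, 0.378 and 0.639 CPM in lung-recovered cells. The clone libraries lay above all others, by 2.46 over ITGB4 high (log2, SE 0.39, adjusted p = 2.17e-05), and lung-recovered cells lay below the clone (-1.70, SE 0.31, adjusted p = 2.93e-04). Its difference of 0.77 between lung-recovered and ITGB4 high cells (SE 0.47, adjusted p = 0.19) was not called. COL4A3, which encodes its assembly partner, had at most 2 counts in any library.

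The type IV genes lie in head-to-head pairs that share the stretch between their starts. In GENCODE 29, COL4A1 and COL4A2 overlap by 1422 bases, COL4A6 and COL4A5 lie 346 bases apart, and COL4A4 and COL4A3 lie 111 bases apart. The bases between the RefSeq starts of COL4A1 and COL4A2 (chr13:110307158-110307283) and 121 of the 379 bases between those of COL4A6 and COL4A5 (chrX:108439588-108439708) are shown since each pair is transcribed outward from them. Both are read on the plus strand of GRCh38.p14 with the same motifs in capitals. In GENCODE 29 the outermost COL4A1 start lies inside the COL4A1 and COL4A2 stretch.
COL4A1 and COL4A2: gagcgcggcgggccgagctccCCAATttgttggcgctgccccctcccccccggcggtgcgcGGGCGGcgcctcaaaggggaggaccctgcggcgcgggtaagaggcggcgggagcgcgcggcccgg
COL4A6 and COL4A5: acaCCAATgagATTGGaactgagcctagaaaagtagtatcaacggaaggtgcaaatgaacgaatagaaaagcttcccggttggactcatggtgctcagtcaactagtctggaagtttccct
The COL4A1 and COL4A2 stretch held 1 CCAAT and 1 GC box and was 80.2% G and C. The COL4A6 and COL4A5 stretch held 2 CCAAT, in opposite directions, and no GC box. In these libraries the genes on either side of each stretch differed in the same direction between the clone and ITGB4 high, but reads from the overlapping ends of COL4A1 and COL4A2 cannot be assigned with certainty, as the strand setting of the counting is not given in the sources used here. The genes within 5 Mb of COL4A1 and COL4A2 had a median log2 difference of 0.60 between the clone and ITGB4 high (39 genes), so both genes lay below a neighbourhood that was itself higher in the clone.

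Of the 11 fibrillar collagen genes, 6 were tested. Their sum stood at 126 ± 3.96 CPM (n = 2) in ITGB4 high, 312 ± 8.30 CPM (n = 3) in the clone and 310.3 ± 3.94 CPM (n = 3) in lung-recovered cells, where the last 2 groups overlapped. In the clone against ITGB4 high, 2 of the 6 were higher, 3 lower and 1 not called, beside 56.2% of all genes called. In lung-recovered cells against the clone, 3 were higher, 1 lower and 2 not called, beside 30.1%.

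COL5A1 and COL5A2 encode the main chains of type V collagen, which nucleates fibrils of type I. COL5A1 (chr9:134641774-134844843, plus strand) read 44.2 and 45.9 CPM in ITGB4 high, 257, 269.9 and 255 CPM in the clone, and 163, 170.2 and 162 CPM in lung-recovered cells. COL5A2 (chr2:189031896-189225312, minus strand) read 23.3 and 24.2 CPM, 3.25, 3.70 and 3.74 CPM, and 4.24, 4.26 and 4.21 CPM. The partner chains thus lay on opposite sides, COL5A1 lowest and COL5A2 highest in ITGB4 high, without overlap for either. COL5A1 was higher in the clone than in ITGB4 high by 2.53 (log2, SE 0.05, adjusted p = 3.59e-18) and lower in lung-recovered cells than in the clone (-0.66, SE 0.04, adjusted p = 2.20e-10). COL5A2 was lower in the clone than in ITGB4 high (-2.73, SE 0.11, adjusted p = 2.88e-14), and its difference of 0.24 between lung-recovered cells and the clone (SE 0.12, adjusted p = 0.152) was not called. Against ITGB4 high, lung-recovered cells had more COL5A1 (1.87, SE 0.05, adjusted p = 5.43e-16) and less COL5A2 (-2.49, SE 0.10, adjusted p = 1.23e-13).

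COL5A3, the minor type V chain, stood at 0.604 and 1.36 CPM in ITGB4 high, at 0.340, 0.328 and 0.483 CPM in the clone and at 0.462, 0.378 and 0.714 CPM in lung-recovered cells. Its level was under 1.5 CPM in each library, and the ITGB4 high libraries differed from each other by more than the other groups did. The call of a lower level in the clone (log2 -1.32, SE 0.43, adjusted p = 0.0129) was lost without the second ITGB4 high library (-0.64, with an adjusted p of 0.355). The difference of lung-recovered cells from ITGB4 high (-0.88, adjusted p = 0.0726) was not called, and was called without the first ITGB4 high library (-1.37, adjusted p = 0.016) or lung-recovered library 3 (-1.20, adjusted p = 0.0413). Without the second ITGB4 high library it shrank to -0.20.

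COL1A1 (chr17:50183289-50201632, minus strand) encodes the major chain of type I collagen, the main fibrillar collagen of scar and bone. It stood at 30.0 and 26.3 CPM in ITGB4 high, at 29.3, 30.4 and 32.5 CPM in the clone and at 98.3, 107 and 98.1 CPM in lung-recovered cells. The dish-grown groups overlapped and the lung-recovered libraries lay above both. Lung-recovered cells exceeded the clone by 1.72 (log2, SE 0.06, adjusted p = 1.71e-14) and ITGB4 high by 1.85 (SE 0.07, adjusted p = 2.69e-14). The difference between the clone and ITGB4 high, 0.13 (SE 0.07, adjusted p = 0.137), was not called, and it was called without the first ITGB4 high library (0.22, adjusted p = 0.0417).

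COL3A1 (chr2:188974320-189012746, plus strand), the gene of type III collagen of elastic tissues, had 3 and 5 counts in ITGB4 high, 6, 14 and 13 in the clone and 39, 38 and 55 in lung-recovered cells. The lung-recovered libraries were the highest, at 1.64 to 2.07 CPM. They exceeded the clone by 1.89 (log2, SE 0.30, adjusted p = 5.93e-05) and ITGB4 high by 3.54 (SE 0.42, adjusted p = 7.65e-07). The clone also lay above ITGB4 high (1.65, SE 0.54, adjusted p = 0.0133), a call that was lost without the first ITGB4 high library (1.31, adjusted p = 0.116) or the second ITGB4 low library (1.40, adjusted p = 0.0554).

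COL1A2, whose chain joins that of COL1A1 in type I collagen, never passed 2 counts in a library, with 2 counts in ITGB4 high, 1 in the clone and 3 in lung-recovered cells over whole groups. Genes that mark lung fibroblasts, which make types I and III, were looked at beside the COL1A1 and COL3A1 values. Of that list of 11, 4 were tested. In lung-recovered cells 0 were higher and 3 lower than in the clone, beside 14.7% and 15.4% of all genes. Against ITGB4 high 2 were higher and 1 lower, beside 26.2% and 25.0% of all genes. The summed level of the list was 294 to 327 CPM in ITGB4 high and 652 to 738 CPM in the clone. In lung-recovered cells this sum was 350.3 to 375.5 CPM, and it came mostly from FBLN1 and CCDC80 in all groups. PI16 and GPC3 had 0 counts in all libraries, and LUM, DPT, MFAP4, INMT and TCF21 had at most 6. Macrophage and myeloid markers summed to 3.62 to 4.64 CPM, 6.12 to 6.46 CPM and 7.48 to 8.38 CPM in the 3 groups, endothelial markers to 21.5 to 22.3 CPM, 14.7 to 16.6 CPM and 16.9 to 17.1 CPM, and lung epithelial markers to at most 2.29 CPM. TYROBP, CLDN5, SFTPA1, SCGB1A1, FOXJ1, HBB, HBA1 and HBA2 had 0 counts in all libraries. Other members were read: of 3 tested myeloid markers, 1 was higher in lung-recovered cells than in the clone and 0 lower. Against ITGB4 high 3 were higher and 0 lower. For 3 tested endothelial markers these counts were 1 and 2 against the clone and 0 and 2 against ITGB4 high. For 2 tested lung epithelial markers they were 0 and 1, and 0 and 0. Smooth-muscle and pericyte markers stood at 68.9 to 75.0 CPM in ITGB4 high, 239 to 253 CPM in the clone and 195 to 211 CPM in lung-recovered cells. Of the 4 tested, 0 were higher and 2 lower in lung-recovered cells than in the clone, and 1 and 2 against ITGB4 high. All these counts stand beside 14.7% higher and 15.4% lower of all genes against the clone, and 26.2% and 25.0% against ITGB4 high. Host cells would be of mouse, while the reads were placed on the human genome. These counts of human marker genes therefore cannot measure how much host RNA was present. The part of other cells in the collagen values was not tested.

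COL27A1 (chr9:114155560-114312511, plus strand), a fibrillar collagen of cartilage, read 24.7 and 30.5 CPM in ITGB4 high, 16.4, 16.4 and 15.2 CPM in the clone, and 39.7, 30.6 and 40.8 CPM in lung-recovered cells. The clone was the lowest group without overlap. It lay below ITGB4 high (log2 -0.78, SE 0.11, adjusted p = 5.30e-06), and lung-recovered cells lay above the clone (1.22, SE 0.10, adjusted p = 8.06e-09). Lung-recovered cells also exceeded ITGB4 high by 0.43 (SE 0.10, adjusted p = 0.00152), a call lost without the first ITGB4 high library (0.28, adjusted p = 0.0689).

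COL7A1 (chr3:48564073-48595267, minus strand) forms the anchoring fibrils that tie the basement membrane under hemidesmosomes to the matrix. It read 107 and 123 CPM in ITGB4 high, 83.3, 78.0 and 71.5 CPM in the clone, and 109.9, 91.8 and 121 CPM in lung-recovered cells. Only the clone stood apart, with every library below those of the other groups. It was lower than ITGB4 high (log2 -0.57, SE 0.09, adjusted p = 1.48e-05), and lung-recovered cells were higher than the clone (0.48, SE 0.08, adjusted p = 9.91e-05). The difference of -0.09 between lung-recovered and ITGB4 high cells (SE 0.09, adjusted p = 0.411) was not called.

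Among the 10 FACIT genes, 5 were tested and their class sum stood at 265 ± 6.29 CPM (n = 2), 439 ± 18.1 CPM (n = 3) and 317 ± 10.6 CPM (n = 3) in ITGB4 high, the clone and lung-recovered cells. COL12A1 (chr6:75084326-75206051, minus strand), whose product bridges fibrils of type I, read 69.4 and 74.6 CPM, 257, 216 and 223 CPM, and 102, 104 and 99.9 CPM. The clone libraries lay highest and ITGB4 high lowest, with no overlap. COL12A1 was higher in the clone than in ITGB4 high by 1.69 (log2, SE 0.07, adjusted p = 3.55e-14). Lung-recovered cells lay below the clone (-1.19, SE 0.06, adjusted p = 2.09e-12) and above ITGB4 high (0.50, SE 0.07, adjusted p = 2.44e-06).

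COL16A1 (chr1:31652247-31704319, minus strand), a fibril-associated collagen of skin and cartilage, varied little across the 3 groups. Its libraries read 191 and 194 CPM in ITGB4 high, 202, 209 and 206 CPM in the clone, and 216, 198 and 222 CPM in lung-recovered cells. The log2 differences were 0.10 (SE 0.05, adjusted p = 0.105) for the clone against ITGB4 high and 0.05 (SE 0.04, adjusted p = 0.487) for lung-recovered cells against the clone, neither called. The call of lung-recovered cells above ITGB4 high (0.14, SE 0.05, adjusted p = 0.0217) was lost without either ITGB4 high library (adjusted p = 0.111 and 0.0642), or without lung-recovered library 1 (0.0722) or 3 (0.118).

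COL9A2 and COL9A3, chains of the cartilage collagen type IX, were near the limit of detection. COL9A2 had 7 and 24 counts in ITGB4 high, 0, 4 and 2 in the clone, and 21, 15 and 11 in lung-recovered cells. The clone was the lowest group and the ITGB4 high libraries bracketed the lung-recovered ones. COL9A2 was called lower in the clone than in ITGB4 high (log2 -2.66, SE 0.74, adjusted p = 0.0048), but not without library 2 of ITGB4 high (-1.51, adjusted p = 0.219). Lung-recovered cells exceeded the clone by 2.81 (SE 0.68, adjusted p = 0.00372), and by 3.76 without the second ITGB4 low library. Without the second ITGB4 low library the clone's difference from ITGB4 high was -3.62, and without the first ITGB4 high library it was -3.31.

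COL9A3 had 4 and 2 counts in ITGB4 high, 1, 1 and 0 in the clone, and 31, 26 and 32 in lung-recovered cells. The ratio of lung-recovered cells to the clone was 41.5, with an exact binomial 95% counting interval of 11.2 to 348.2 that covers counting error only. Lung-recovered cells also lay above ITGB4 high (log2 3.38, SE 0.48, adjusted p = 6.76e-06). COL9A3 overlaps TCFL5 on the opposite strand, which had 417 to 924 counts. TCFL5 differed by 0.09 between lung-recovered cells and the clone (log2, adjusted p = 0.331) and by -0.62 between lung-recovered and ITGB4 high cells. The part of TCFL5 in the COL9A3 counts was not tested. COL9A1, the remaining chain of type IX, had 0 counts in all libraries. COL21A1, a FACIT gene of vessel walls, had 2 and 4 counts in ITGB4 high, 12, 22 and 23 in the clone and 14, 6 and 19 in lung-recovered cells. It lay above ITGB4 high in the clone (2.83, SE 0.57, adjusted p = 2.65e-04) and in lung-recovered cells (2.19, SE 0.61, adjusted p = 0.00535), where the second call was lost without the first ITGB4 high library (1.76, adjusted p = 0.074).

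COL13A1 (chr10:69801867-69964275, plus strand) encodes a collagen that spans the cell membrane at adhesion sites. It stood at 0.302 and 0.195 CPM in ITGB4 high, at 10.1, 8.49 and 6.80 CPM in the clone and at 2.77, 3.36 and 3.72 CPM in lung-recovered cells. The groups did not overlap. The clone exceeded ITGB4 high by 5.05 (log2, SE 0.29, adjusted p = 1.88e-11), the largest difference of a tested collagen gene in that comparison, and lung-recovered cells lay below the clone (-1.35, SE 0.16, adjusted p = 1.59e-06) and above ITGB4 high (3.70, SE 0.34, adjusted p = 2.47e-08). Genes within 5 Mb of it had a median of 0.16 between the clone and ITGB4 high (83 genes).

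COL18A1 (chr21:45405137-45513720, plus strand), the basement membrane collagen from which endostatin is cut, read 82.7 and 81.5 CPM in ITGB4 high, 98.1, 105 and 105 CPM in the clone, and 82.3, 89.4 and 86.6 CPM in lung-recovered cells. The clone was the highest group. It exceeded ITGB4 high by 0.32 (log2, SE 0.05, adjusted p = 2.98e-05), and lung-recovered cells lay below it (-0.26, SE 0.05, adjusted p = 2.85e-04) and not detectably apart from ITGB4 high (0.07, SE 0.05, adjusted p = 0.303). The opposite-strand gene SLC19A1, which overlaps COL18A1, had 2030 to 3552 counts and differed by -0.27 and 0.03 in these comparisons, and its part in the COL18A1 values was not tested. COL28A1, a collagen with von Willebrand factor A domains, read 5.28 and 6.35 CPM in ITGB4 high, 3.98, 4.92 and 4.59 CPM in the clone and 2.44, 2.32 and 2.52 CPM in lung-recovered cells. The lung-recovered libraries were the lowest, below the clone (log2 -0.89, SE 0.16, adjusted p = 1.70e-04) and below ITGB4 high (-1.26, SE 0.16, adjusted p = 1.92e-06). The call between the clone and ITGB4 high (-0.37, SE 0.15, adjusted p = 0.0418) was lost without the second library of ITGB4 high (adjusted p = 0.301), ITGB4 low library 1 or 3 (0.121 and 0.073), or lung-recovered library 1 or 3 (0.0517 and 0.051).

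The 19 collagen genes that were not tested never passed 7 counts in a library or 15 counts in a group. COL2A1, COL6A5, COL6A6 and COL9A1 had 0 counts in all 8 libraries. COL11A2 had 11 counts in ITGB4 high, 8 in the clone and 15 in lung-recovered cells, and COL22A1 had 10, 0 and 0. COL24A1 had 4, 4 and 10 counts, COL15A1 2, 5 and 3, and COL23A1 0, 0 and 4. The other untested genes, COL10A1, COL11A1, COL14A1, COL19A1, COL20A1, COL25A1 and COL26A1 besides COL1A2, COL4A3 and COL8A2, had at most 6 counts in a group. Their counts were too low to test, so nothing is said of differences between the groups.

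Chains that assemble with each other were compared as ratios of CPM per kb within a library. COL5A1 to COL5A2 was 1.26 in ITGB4 high (1.26 in both libraries), 48.8 ± 3.64 (n = 3) in the clone and 25.9 ± 0.600 (n = 3) in lung-recovered cells. This was the widest spread of any pair across the groups, and the groups did not overlap. COL6A1 to COL6A2 was 0.334 and 0.307 in ITGB4 high, 0.275 ± 0.00872 in the clone and 0.572 ± 0.0180 in lung-recovered cells, so that the alpha 1 message was nearest to the alpha 2 message in lung-recovered cells.

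COL6A3 to COL6A1 was 1.25 and 1.48 in ITGB4 high, 4.68, 3.06 and 3.32 in the clone, and 2.45, 2.22 and 2.35 in lung-recovered cells. The groups did not overlap, and the first ITGB4 low library stood apart from the other two. COL4A1 to COL4A2 was 0.679 and 0.709 in ITGB4 high, 0.774 ± 0.0439 in the clone and 0.801 ± 0.0363 in lung-recovered cells, where the last 2 groups overlapped. COL4A5 to COL4A6 was 0.492 and 0.519 in ITGB4 high, 0.602 ± 0.00386 in the clone and 0.525 ± 0.0208 in lung-recovered cells. The type IV pairs thus moved within a narrow range beside the type V pair. No ratio was formed for COL1A1 with COL1A2 or COL8A1 with COL8A2, whose second members had 1 count each in the clone. These ratios depend on the lengths used, and none was tested.

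**Figure D4:**
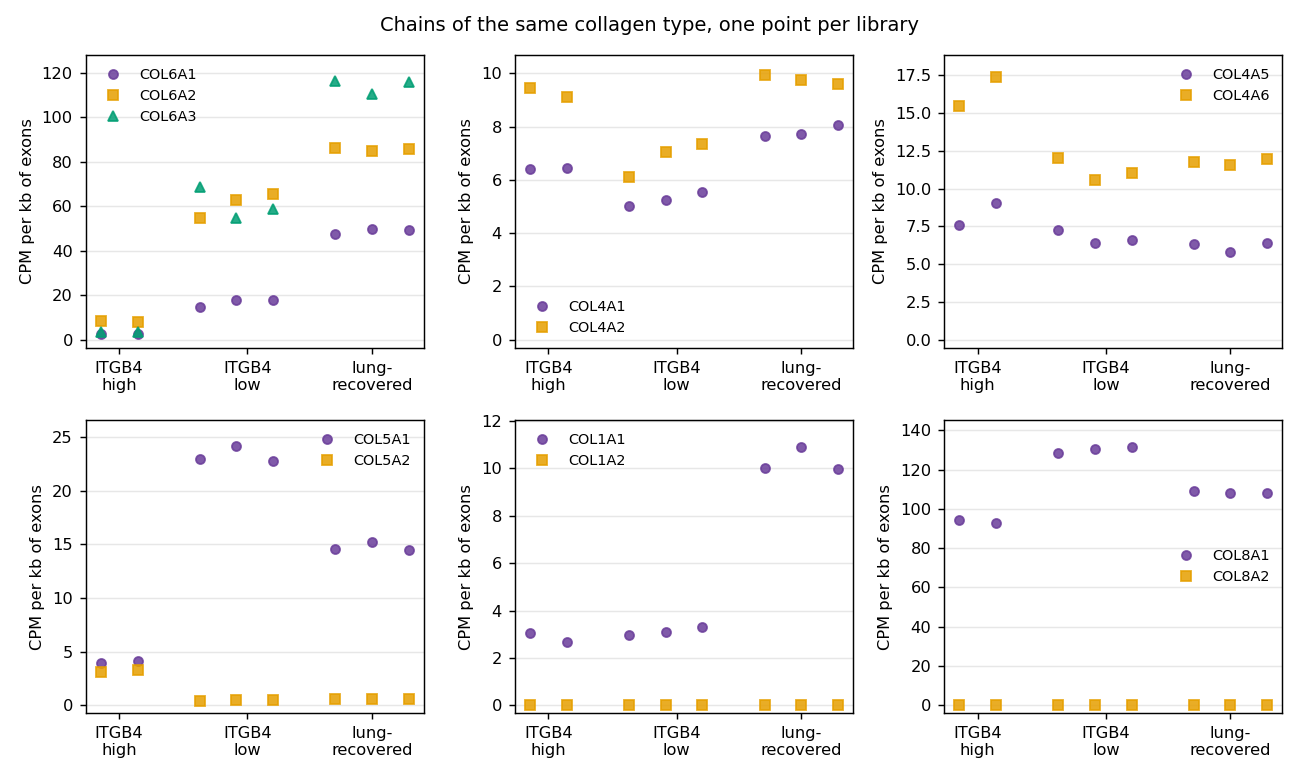
Level of chains of the same collagen type in each library, in CPM per kb of exon union on linear axes that differ between panels, with a point per library and gene. COL5A1 and COL5A2 lay close together in ITGB4 high (ratio 1.26) and far apart in the other 6 libraries (ratios of 25.6 to 52.6), and COL1A2 and COL8A2 lay at the axis in all 8.

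Position along the chromosome was set beside the values of neighbouring collagen genes. COL3A1 and COL5A2 lie tail to tail, 19.1 kb apart on chromosome 2, and differed by 1.65 and -2.73 (log2) between the clone and ITGB4 high, where the 34 genes within 5 Mb had a median of 0.38. This pair thus lay on opposite sides, though COL3A1 had few counts and its call was lost when some libraries were left out. COL4A1 with COL4A2, COL4A6 with COL4A5 and COL6A1 with COL6A2 each differed in the same direction there. The surroundings of COL1A1 had medians of -0.12 for the clone against ITGB4 high and 0.0047 for lung-recovered cells against the clone (97 genes). Those of COL5A1 were -0.22 and 0.08 (115 genes), those of COL12A1 0.07 and -0.11 (34 genes), and those of COL8A1 -0.47 and -0.01 (29 genes). COL8A1 was thus higher in the clone within a stretch whose median was lower there.

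Proteins that modify collagen chains inside the cell, process them outside, bind them or break them down were counted from lists drawn up with earlier results of these data known. Of 24 genes for intracellular modification and secretion, all tested, 13 were higher and 6 lower in the clone than in ITGB4 high (median log2 difference 0.31), where 28.6% of all genes were higher and 27.6% lower. In lung-recovered cells against the clone, 3 were higher and 10 lower (-0.06), beside 14.7% and 15.4% of all genes. Against ITGB4 high 10 were higher and 6 lower (0.06), beside 26.2% and 25.0%. PLOD2, the lysyl hydroxylase that readies telopeptides for stable cross-links, stood at 3.16 ± 0.226 CPM in ITGB4 high, 25.1 ± 2.08 CPM in the clone and 34.0 ± 1.48 CPM in lung-recovered cells. It was higher in the clone than in ITGB4 high by 2.99 (SE 0.11, adjusted p = 1.76e-14) and higher in lung-recovered cells than in the clone by 0.44 (SE 0.07, adjusted p = 6.11e-05). SERPINH1, the collagen chaperone HSP47, went from 201 ± 7.18 CPM in ITGB4 high to 394 ± 11.3 CPM in the clone, a log2 difference of 0.97 (SE 0.05, adjusted p = 9.44e-13). CRTAP, of the prolyl 3-hydroxylation complex, was lower in the clone than in ITGB4 high (-0.39, adjusted p = 4.99e-06), as was TMEM38B (-0.68, adjusted p = 2.26e-09), an ion channel of the endoplasmic reticulum needed for collagen modification. P4HA2, a prolyl 4-hydroxylase subunit, was lower in lung-recovered cells than in the clone (-0.42, adjusted p = 1.82e-06).

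Of 14 genes for extracellular processing and cross-linking, 12 were tested. In the clone against ITGB4 high 8 were higher and 1 lower (median 1.01), where 56.2% of all genes were called. Lung-recovered cells had 2 higher and 6 lower than the clone (-0.21, with 30.1% of all genes called), and 7 higher and 2 lower than ITGB4 high (0.93, with 51.2% called). Among listed genes that reached 10 CPM in a group, ADAMTS2 and PCOLCE had the largest differences between the clone and ITGB4 high. The procollagen peptidase gene ADAMTS2 differed by 6.21 (SE 0.15, adjusted p = 3.61e-17). The procollagen C-endopeptidase enhancer gene PCOLCE, which belongs to a different cleavage, differed by 5.38 (SE 0.14, adjusted p = 4.45e-17). In lung-recovered cells against the clone, PCOLCE was higher by 0.56 (SE 0.06, adjusted p = 5.78e-07) and the transglutaminase gene TGM2 by 0.44 (SE 0.06, adjusted p = 9.02e-06). The lysyl oxidase genes LOX (-1.16, SE 0.09, adjusted p = 2.31e-09) and LOXL1 (-0.68, SE 0.07, adjusted p = 1.49e-07), which start cross-links, were lower there.

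Among 12 collagen receptor genes, 11 were tested. In the clone against ITGB4 high 7 were higher and 3 lower (median 0.81), beside 28.6% and 27.6% of all genes. In lung-recovered cells 4 were higher and 4 lower than in the clone (0.08), beside 14.7% and 15.4%, and 6 higher and 2 lower than in ITGB4 high (0.87), beside 26.2% and 25.0%. ITGA2, the alpha 2 integrin chain that binds fibrillar collagen, stood at 347 ± 18.7 CPM in ITGB4 high, 116 ± 8.07 CPM in the clone and 282 ± 5.07 CPM in lung-recovered cells. It was lower in the clone than in ITGB4 high (-1.58, SE 0.05, adjusted p = 4.87e-15) and higher in lung-recovered cells than in the clone (1.28, SE 0.05, adjusted p = 9.65e-14). The discoidin domain receptors, tyrosine kinases that collagen activates, lay on opposite sides. DDR2 stood at 2.14 ± 0.439 CPM in ITGB4 high, 95.6 ± 6.08 CPM in the clone and 56.0 ± 0.467 CPM in lung-recovered cells, and DDR1 at 43.3 ± 0.0612 CPM, 24.4 ± 3.08 CPM and 35.1 ± 1.19 CPM. The clone exceeded ITGB4 high in DDR2 by 5.47 (SE 0.10, adjusted p = 5.92e-19) and lay below it in DDR1 (-0.83, SE 0.08, adjusted p = 2.07e-08). MRC2, which takes up collagen fragments, was higher in lung-recovered than in ITGB4 high cells by 1.30 (SE 0.05, adjusted p = 1.80e-13).

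Of 10 collagen breakdown genes, 5 were tested. In the clone against ITGB4 high 3 were higher and 0 lower (median 0.17), a share near the 56.2% of all genes called. In lung-recovered cells 0 were higher and 2 lower than in the clone (0.02), where 30.1% of all genes were called, and 3 higher and 0 lower than in ITGB4 high (0.86), where 51.2% were called. MMP2, the gelatinase that acts on denatured collagen and type IV, stood at 33.4 ± 0.993 CPM in ITGB4 high, 231.5 ± 3.10 CPM in the clone and 150.0 ± 0.254 CPM in lung-recovered cells. It was higher in the clone than in ITGB4 high by 2.79 (SE 0.05, adjusted p = 5.92e-19) and lower in lung-recovered cells than in the clone (-0.63, SE 0.04, adjusted p = 1.92e-10). MMP16, a membrane-type metalloproteinase, differed by 2.92 (SE 0.19, adjusted p = 1.24e-10) and -0.71 (SE 0.13, adjusted p = 2.87e-04) in the same comparisons.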

How the data were processed

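Polyadenylated RNA of 8 libraries was sequenced, and the authors deposited raw counts per gene, whole numbers that were not normalised. STAR 2.7.1a and hg38 are named per the submitters' processing notes. The counting program, its strand setting and its annotation were not given in the sources used here. Libraries are strand-marked (dUTP), per the labels' protocols. Symbols, gene types and positions came from GENCODE 29 (58216 identifiers matched, 120 did not). Promoter sequences came from RefSeq (GRCh38.p14), where 31 of the 43 collagen genes had an entry.

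Counts of all 8 libraries entered 1 edgeR 4.0.16 fit (R 4.3.3; TMM, filterByExpr, 1 term per group, quasi-likelihood F test), with Benjamini-Hochberg adjustment over 15220 genes and a threshold of 0.05. The standard error is the log2 difference divided by the square root of F. Totals ran from 20.41 to 27.22 M counts, and the biological coefficient of variation was 0.0452. No molecular identifiers are recorded. The fit was tested on simulated data with 200 changed genes.

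Values per library are given for collagen genes that reached 10 CPM in a group and for the 3 largest rises and falls of each comparison. COL21A1, named besides, was chosen after its values were seen. From each pathway list up to 2 called genes at 10 CPM or more per direction could be named. The members and lists were chosen with earlier results of these data known. Alternatives were other scalings and filters, limma-voom 3.58.1, DESeq2 1.42.0, a replicate block, fewer libraries and the longest transcript as length.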

Additional observations from a re-analysis of the deposited data

How the results depend on the processing

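Over the log2 differences of the 24 tested collagen genes in 3 comparisons, 1117 values under other settings kept direction and side of the threshold, 22 lost their call, 5 gained one and 4 changed sign. The changes of sign were in uncalled differences of lung-recovered from ITGB4 high cells: COL7A1 without the second ITGB4 high library (0.0071) or the second lung-recovered library (0.013), in a range of -0.19 to 0.013, and COL9A2 without the first ITGB4 high library (-0.50) or the first lung-recovered library (-0.11), in a range of -0.50 to 1.30. Counts of lower collagen genes in the clone against ITGB4 high ran from 6, without the second ITGB4 high library, to 10 when each library was left out in turn, and higher ones from 10 to 11. For lung-recovered cells they ran from 11 to 14 higher and 4 to 5 lower against ITGB4 high, and stayed at 11 and 7 against the clone. The lone ITGB4 high library was then assumed to vary like the other groups. With the replicate number as a block, 11 were higher and 9 lower in the clone (COL28A1 lost its call, log2 -0.39, adjusted p = 0.0563), 11 and 7 in lung-recovered cells against the clone, and 13 and 5 against ITGB4 high (COL16A1 lost its call, 0.12, adjusted p = 0.0851, and COL5A3 gained one, -1.12, adjusted p = 0.0418). Same-numbered libraries correlated at -0.075 to 0.040 in their deviations from group means, so no pairing by number was visible. With so few libraries in a group these deviations constrain each other, so they cannot decide whether the numbers pair the samples. COL28A1 in the clone against ITGB4 high also lost its call with upper-quartile scaling (adjusted p = 0.0562), DESeq2 (adjusted p = 0.105), no low-count filter (adjusted p = 0.0506) and only the 2 groups compared (adjusted p = 0.0551), and COL16A1 there gained one with upper-quartile scaling (0.12, adjusted p = 0.0475). No scaling moved the median of all genes by more than 0.024 (log2).

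With the length of the longest transcript, values per kb changed by construction, for ITGB4 high, the clone and lung-recovered cells in turn. The collagen sum became 339, 623 and 769 CPM per kb (from 208, 389 and 474), COL4A1 to COL4A2 0.520, 0.580 and 0.601, COL4A5 to COL4A6 0.673, 0.802 and 0.699, and COL5A1 to COL5A2 1.58, 61.3 and 32.6. COL6A1 to COL6A2 became 0.260, 0.223 and 0.463, and COL6A3 to COL6A1 became 1.98, 5.34 and 3.39. COL6A3 to COL6A2 became 0.511, 1.18 and 1.57 (from 0.4355, 1.008 and 1.336). The order of the groups within each ratio did not change. The order of genes by level changed in ITGB4 high and in the clone. Counts under 30 in each library limited the precision for COL9A2 and COL21A1.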
